A study of Homo sapiens with 15 samples.

Results

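The BCL2 family decides whether the outer membrane of the mitochondrion is opened during apoptosis. Its members were taken by gene symbol as BCL2, BCL2L1, MCL1, BAX, BAK1, BID, BAD, BIK, BCL2L11 and PMAIP1, and all 10 were measured among the 17272 genes of the expression table. The measurements came from LNCaP, a human prostate cancer cell line that depends on androgen. Cells had been kept for 2 days in charcoal-stripped, androgen-poor serum and were collected 22 h after treatment. In 10 libraries the cells had received 1 nM of the synthetic androgen R1881 with the solvent DMSO, and in 5 libraries 1 nM R1881 together with 2 µM enzalutamide, an antiandrogen. All cells had therefore received androgen, and the comparison sets libraries with the antiandrogen against libraries without it, in a single cell line. In the sample descriptions, numbers 51 to 55 and 71 to 75 stand for R1881 and numbers 81 to 85 for the combination. What the series of numbers mark is not said. No series holds both treatments, so for every gene a difference between treatments cannot be told apart from one between series. The methods text of the study gives the library numbers of the groups the other way round, and the sample labels were followed here.

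Guardian proteins of this family (BCL2, BCL-XL from BCL2L1, and MCL1) hold the effectors BAX and BAK in check. Stress signals act through the BH3-only proteins, which bind the guardians or switch on the effectors directly, and activated effectors form pores that release cytochrome c and so start the caspases. Much of this control lies in protein stability, cleavage and phosphorylation, which RNA levels do not show.

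Sequences upstream of the genes are given for the members that changed most and for BAX, whose difference was small, as context for the levels described further on. RefSeq (GRCh38.p14) promoters of 300 bases, from 250 bases before to 50 bases after the transcription start, were matched for 8 of the 10 members, and where a gene has several starts the one nearest to the canonical start of GENCODE v44 was used. MCL1 and BIK were not matched. Each promoter was searched on both strands for TTTGGCGC or TTTCCCGC (E2F), GTAAACA (forkhead factors), TGACGTCA (the cyclic AMP response element), CACGTG (the E-box), CCAAT (the CCAAT box) and GGGCGG (the GC box). Capitals mark every match.
PMAIP1 (chr18:59899746-59900045, plus strand): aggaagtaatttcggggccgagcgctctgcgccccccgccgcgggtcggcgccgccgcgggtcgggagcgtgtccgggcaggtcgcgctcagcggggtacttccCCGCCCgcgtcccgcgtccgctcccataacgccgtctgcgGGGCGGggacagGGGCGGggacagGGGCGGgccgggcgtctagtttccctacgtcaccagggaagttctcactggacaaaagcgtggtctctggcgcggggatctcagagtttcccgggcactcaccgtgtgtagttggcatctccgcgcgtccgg
BCL2L1 (chr20:31722819-31723118, minus strand): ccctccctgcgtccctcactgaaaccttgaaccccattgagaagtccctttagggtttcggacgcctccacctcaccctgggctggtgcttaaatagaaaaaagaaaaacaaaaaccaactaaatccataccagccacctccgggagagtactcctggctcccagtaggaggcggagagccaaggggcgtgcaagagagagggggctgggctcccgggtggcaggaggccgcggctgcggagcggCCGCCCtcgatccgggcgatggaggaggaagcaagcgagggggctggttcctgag
BID (chr22:17774420-17774719, minus strand): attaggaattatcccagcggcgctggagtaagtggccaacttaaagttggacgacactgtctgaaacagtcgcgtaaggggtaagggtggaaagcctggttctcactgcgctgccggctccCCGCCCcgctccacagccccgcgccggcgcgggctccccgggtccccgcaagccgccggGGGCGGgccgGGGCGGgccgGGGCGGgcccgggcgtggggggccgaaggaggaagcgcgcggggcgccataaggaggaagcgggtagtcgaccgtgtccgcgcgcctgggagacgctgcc
BAX (chr19:48954625-48954924, plus strand): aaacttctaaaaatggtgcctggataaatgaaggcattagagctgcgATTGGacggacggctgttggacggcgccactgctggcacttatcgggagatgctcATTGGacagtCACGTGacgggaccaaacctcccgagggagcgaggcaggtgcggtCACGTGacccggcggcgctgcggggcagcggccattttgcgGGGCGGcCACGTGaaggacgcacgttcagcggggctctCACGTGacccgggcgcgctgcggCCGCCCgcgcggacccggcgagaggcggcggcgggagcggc

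The PMAIP1 promoter held 4 GC boxes and 42 CpG dinucleotides, where the median over 35116 RefSeq promoters was 14 CpG. The BID promoter also held 4 GC boxes, with 37 CpG, and that of BCL2L1 held 1 GC box and 16 CpG. The BAX promoter differed from these by 4 E-boxes and 2 CCAAT boxes beside 2 GC boxes. A GC box was present in 7 of the 8 matched promoters (45.0% of all promoters) and a CCAAT box in 4 (34.6%). An E-box was present in 1 of 8, that of BAX (7.26% of all promoters), and a forkhead site in 1 of 8, that of BCL2L11 (3.42%). The E2F site was found in 0 of 8 (2.27% of all promoters), as was the cyclic AMP response element (1.85%). These are letter matches in a short window, not measured binding.

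Libraries held 15830745 to 25416052 reads on the genes of the table. The androgen target KLK3, which encodes PSA, checked the treatment, with 1588 ± 209 CPM (SD, n = 10) with R1881 and 134 ± 7.66 CPM (SD, n = 5) with R1881 + enzalutamide. All 9 luminal prostate markers examined had values, and 6 were lower and 3 higher with enzalutamide by limma (32.7% and 29.8% of all genes). Of 13 markers of basal, stromal, immune and endothelial cells, 10 were not among the genes of the expression table, whose gene filter is not given. The other 3 were low. With R1881 and with enzalutamide, KRT14 had 0.706 to 1.44 CPM and at most 0.279 CPM, VWF 2.08 to 2.84 and 2.84 to 3.35 CPM, and COL1A1 4.38 to 8.43 and 7.45 to 12.3 CPM. KRT14 was lower, and VWF and COL1A1 were higher, with enzalutamide by limma, with overlapping libraries for COL1A1. KRT14 met the filter of 0.5 CPM on average only through the R1881 libraries, so its call is no support. The part of other cells in the results was not tested. In bulk RNA, a lower share of cells that express a gene and less RNA per cell cannot be told apart.

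PMAIP1 (NOXA) and BCL2L1 fell, and BID rose, each without overlap between treatments. MCL1 and BCL2 were slightly higher and BAK1 slightly lower, with overlapping libraries. BAX, BAD, BIK and BCL2L11 (BIM) did not pass the test. In all, 3 of the 10 members were lower and 3 were higher at an adjusted p under 0.05 from limma on log2(CPM + 0.5), while 32.7% of the 17046 genes tested were lower and 29.8% higher. The members' shares thus lay close to those of all genes. Every library with enzalutamide lay below every R1881 library for 2 members (20.1% of all genes) and above for 1 (17.1%). The median of the absolute log2 fold change was 0.21 over the members and 0.24 over all genes tested.

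**Figure D1:**
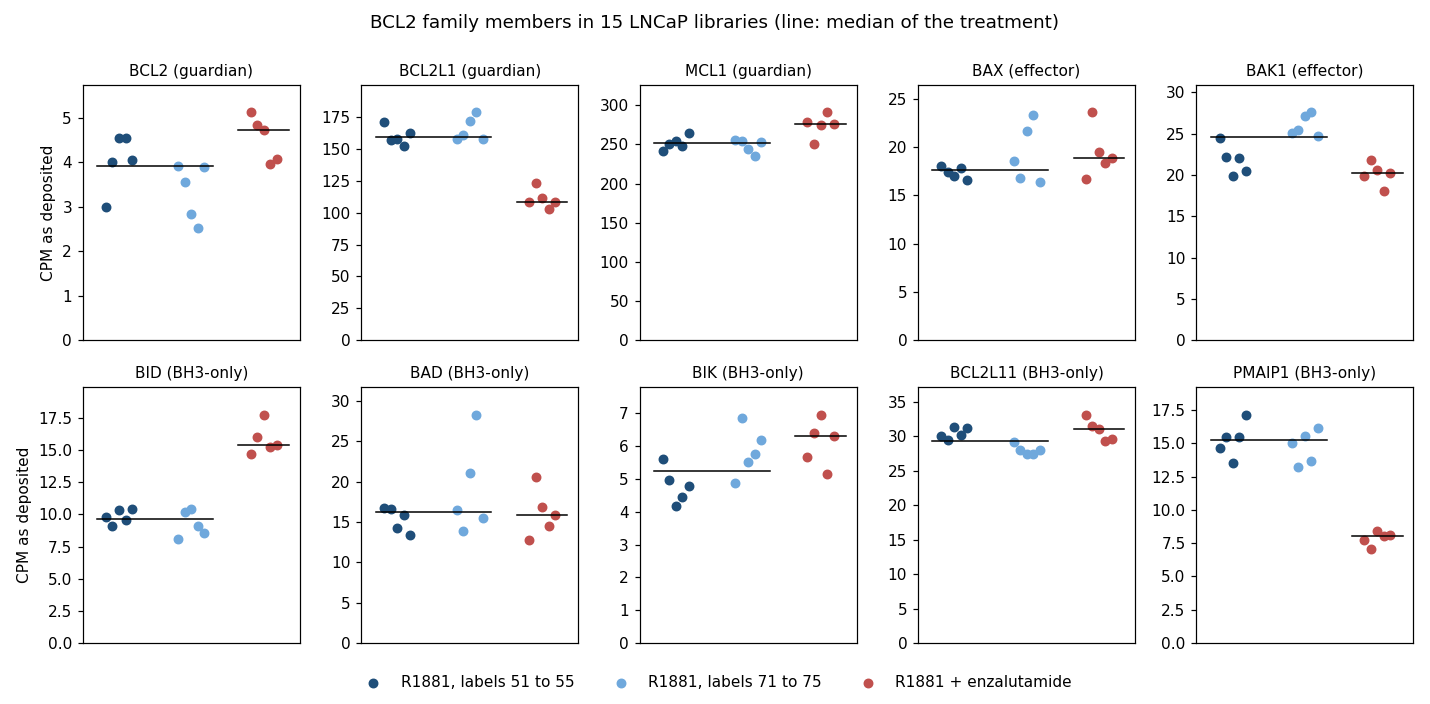
CPM as deposited (vertical axes, from 0) of each member in 15 libraries, with R1881 libraries split by label number (dark and light blue) and R1881 + enzalutamide in red, and a line at the median of each treatment. The groups do not overlap for PMAIP1, BCL2L1 and BID, while BAD reaches 28.3 CPM in 1 R1881 library and BAX 23.3 and 21.6 CPM in 2 R1881 libraries.

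The guardian BCL2L1 ranged from 152 to 179 CPM with R1881 (median 159 CPM, 10 libraries) and had 108, 123, 111, 103 and 108 CPM in R1881 + enzalutamide replicates 1 to 5. All 5 libraries with enzalutamide lay below all 10 with R1881. The R1881 mean was 162 ± 8.39 CPM (SD, n = 10) and the mean with enzalutamide 111 ± 7.34 CPM (SD, n = 5), which is 1.47-fold lower. Its log2 fold change was -0.55 (SE 0.043, limma adjusted p = 3.86e-10). The BCL2L1 transcript is spliced into a long form, BCL-XL, and a short form of opposite function, and a count per gene does not separate them.

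MCL1, a guardian with a short-lived protein, ranged from 235 to 265 CPM with R1881 (median 252 CPM). With enzalutamide its 5 libraries held 279, 251, 275, 291 and 276 CPM. In 4 of these 5 libraries MCL1 was above the highest R1881 library, and replicate 2 lay within the R1881 range. The difference was small, 1.10-fold with a 95% confidence interval from 1.04 to 1.15 (log2 fold change 0.13, SE 0.035, limma adjusted p = 0.00236).

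BCL2 itself, the founding guardian, was the member with the fewest reads, between 45 and 110 per library. It ranged from 2.52 to 4.55 CPM with R1881 (median 3.91 CPM), and its libraries with enzalutamide held 5.12, 4.84, 4.73, 3.95 and 4.08 CPM. These values overlapped, with 3 libraries above the R1881 range. BCL2 passed the threshold narrowly, with a log2 fold change of 0.28 (SE 0.12, limma adjusted p = 0.0403; two-sided exact permutation test, p = 0.0373). It did not pass against the R1881 libraries 51 to 55 alone (0.16, adjusted p = 0.221) and did against the libraries 71 to 75 alone (0.40, adjusted p = 0.0106). The call was also lost without any one of R1881 replicates 1, 3, 5 and 6 or R1881 + enzalutamide replicates 1, 2 and 3, with log2 fold changes of 0.23 to 0.33 over all 15 omissions.

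Of the effectors, BAX ranged from 16.4 to 23.3 CPM with R1881 (median 17.6 CPM) and held 16.7, 23.6, 19.4, 18.3 and 18.8 CPM with enzalutamide. The treatments overlapped almost wholly, and the log2 fold change was 0.08 (SE 0.084, limma adjusted p = 0.442), a ratio between 0.934 and 1.19 at 95% confidence. BAK1 ranged from 19.8 to 27.6 CPM with R1881 (median 24.6 CPM) and had 19.9, 21.8, 20.6, 18.01 and 20.2 CPM with enzalutamide. Its highest library with enzalutamide lay below 8 of the 10 R1881 libraries. The log2 fold change of BAK1 was -0.24 (SE 0.073, limma adjusted p = 0.00758). However, BAK1 also differed between the R1881 libraries themselves, with a mean of 21.8 CPM in libraries 51 to 55 and 26.0 CPM in libraries 71 to 75 (adjusted p = 0.0402 from limma). It was the only one of the 10 members that passed this test, where 3.29% of all genes differed between these series. BCL2L11 did not pass it (adjusted p = 0.138 from limma). Yet its libraries 51 to 55 (29.5 to 31.3 CPM) all lay above its libraries 71 to 75 (27.4 to 29.2 CPM). Against libraries 51 to 55 alone the log2 fold change of BAK1 was -0.11 (adjusted p = 0.152), and against libraries 71 to 75 alone -0.365 (adjusted p = 9.86e-05). As no series of label numbers holds both treatments, series and treatment cannot be told apart.

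Of the 5 BH3-only members, PMAIP1 fell, BID rose and the other 3 did not pass the test. PMAIP1 encodes NOXA, which binds MCL1 and promotes its degradation. It ranged from 13.2 to 17.1 CPM with R1881 (median 15.2 CPM) and held 7.73, 7.07, 8.41, 8.04 and 8.12 CPM with enzalutamide. The lowest R1881 library was thus well above the highest library with enzalutamide. The mean was 14.98 ± 1.24 CPM (SD, n = 10) with R1881 and 7.87 ± 0.511 CPM (SD, n = 5) with enzalutamide. On the log2(CPM + 0.5) scale PMAIP1 was 1.85-fold lower (log2 fold change -0.88, SE 0.065, limma adjusted p = 1.63e-10).

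BID, which links death receptors to the mitochondrion once caspase-8 has cleaved it, ranged from 8.05 to 10.5 CPM with R1881 (median 9.65 CPM). Its libraries with enzalutamide held 14.7, 16.05, 17.7, 15.3 and 15.4 CPM, all above the R1881 range. The mean was 9.54 ± 0.823 CPM (SD, n = 10) with R1881 and 15.8 ± 1.18 CPM (SD, n = 5) with enzalutamide. On the log2(CPM + 0.5) scale BID was 1.63-fold higher (log2 fold change 0.70, SE 0.068, limma adjusted p = 1.21e-08). For PMAIP1, BCL2L1 and BID the two-sided exact permutation test gave p = 0.000333, the smallest that 3003 regroupings of the libraries allow. This value follows from the lack of overlap and is no separate support. Such a lack of overlap was found for 20.1% (below) and 17.1% (above) of all genes. Against either R1881 series alone the log2 fold changes were -0.91 and -0.86 for PMAIP1, -0.53 and -0.58 for BCL2L1, and 0.66 and 0.75 for BID.

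BCL2L11 encodes BIM, which binds every guardian. It ranged from 27.4 to 31.3 CPM with R1881 (median 29.3 CPM) and held 33.1, 31.5, 31.1, 29.3 and 29.6 CPM with enzalutamide. All 5 libraries were above the R1881 median, but so were all R1881 libraries 51 to 55 (29.5 to 31.3 CPM). The difference of 0.08 on the log2 scale did not pass (SE 0.046, limma adjusted p = 0.128). It did pass with TMM factors (0.12, adjusted p = 0.015), with edgeR on the recovered reads (0.13, adjusted p = 0.0159) and with library totals set to 1000000 (0.17, adjusted p = 0.00149). Against libraries 51 to 55 alone the log2 fold change of BCL2L11 was 0.02 (adjusted p = 0.723) and against libraries 71 to 75 alone 0.14 (adjusted p = 0.0227). BIK, a BH3-only protein of the endoplasmic reticulum, ranged from 4.19 to 6.85 CPM with R1881 (median 5.26 CPM) and held 5.68, 6.42, 6.96, 5.17 and 6.31 CPM with enzalutamide, a log2 fold change of 0.19 (SE 0.099, limma adjusted p = 0.106). Against libraries 51 to 55 alone BIK passed (0.315, adjusted p = 0.00964), and against libraries 71 to 75 alone it did not (0.06, adjusted p = 0.632). Without R1881 replicate 3, its highest R1881 library, BIK also passed (0.23, adjusted p = 0.0403).

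BAD, which neutralises BCL2 and BCL-XL when survival kinases no longer phosphorylate it, ranged from 13.4 to 28.3 CPM with R1881 (median 16.2 CPM). With enzalutamide it held 12.8, 20.6, 16.8, 14.6 and 15.8 CPM. The treatments overlapped, and the log2 fold change was -0.08 (SE 0.14, limma adjusted p = 0.652), a ratio between 0.779 and 1.16 at 95% confidence. Its sign turned with library totals set to 1000000 (0.02) and against libraries 51 to 55 alone (0.05), so no direction can be given for BAD.

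**Figure D2:**
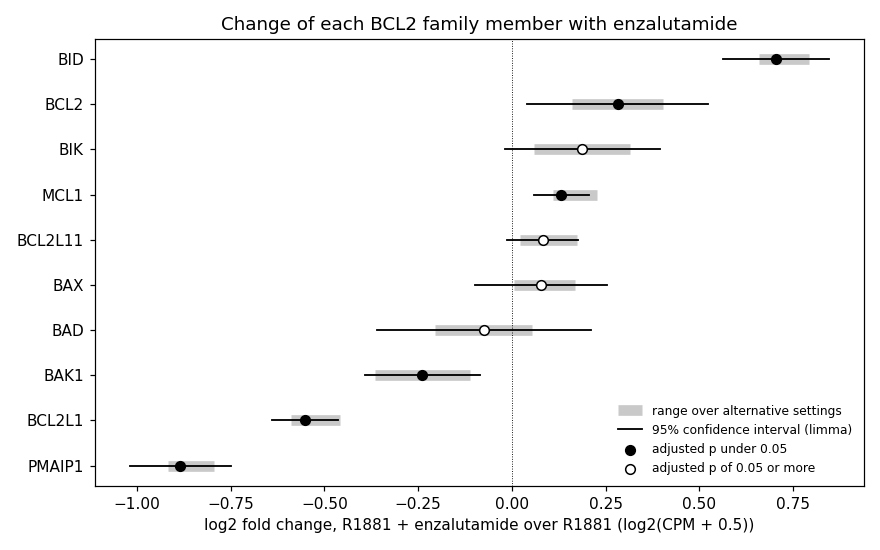
Log2 fold change of each member, R1881 + enzalutamide over R1881 (horizontal axis), with the 95% confidence interval from limma (line) and the range over 30 alternative settings (grey bar). PMAIP1 (-0.88), BCL2L1 (-0.55) and BID (0.70) lie away from 0 under every setting drawn, and the bar of BAD spans 0.

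Scaling of the libraries bore on the small differences. Column sums of the deposited values were 1053406 to 1078567 under R1881 but only 985580 to 1008992 under the combination. Of all genes called, 52.3% were lower with the values as deposited, 46.1% with TMM factors and 39.3% with library totals set to 1000000, where the median log2 fold change of all genes was 0.075. Under the last scaling 2 members were lower and 5 higher, since BAK1 no longer passed (-0.15, adjusted p = 0.0979) and BIK and BCL2L11 did. Ratios of members within a library do not depend on this scaling. The CPM of MCL1 over that of BCL2L1 was 1.32 to 1.64 with R1881 (median 1.60) and 2.04 to 2.82 with enzalutamide (median 2.55), 1.59-fold higher. The ratio of PMAIP1 to MCL1 was 0.0518 to 0.0647 (median 0.0612) with R1881 and 0.0276 to 0.0306 (median 0.0282) with enzalutamide, a difference of the mean log2 ratios of -1.06. That of BID to BCL2L1 was 0.0509 to 0.0654 (median 0.0592) with R1881 and 0.131 to 0.160 (median 0.142) with enzalutamide, 2.40-fold higher by the medians. The ratio of BID to PMAIP1 was 0.532 to 0.770 (median 0.640) with R1881 and 1.90 to 2.27 (median 1.90) with enzalutamide. None of these 4 ratios overlapped between treatments. Each holds PMAIP1, BCL2L1 or BID, which had no overlap by themselves, so this is no separate support. The other ratios formed did overlap. That of BAX to BCL2 was 3.74 to 9.25 with R1881 (median 4.52) and 3.26 to 4.87 with enzalutamide (median 4.62). Its difference of the mean log2 ratios was -0.24. With R1881 and with enzalutamide, BCL2L11 to MCL1 was 0.11 to 0.124 and 0.101 to 0.126. BAD to BCL2L1 was 0.0829 to 0.158 and 0.118 to 0.168. These are ratios of CPM, read between libraries only, since the transcripts differ in length.

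Per length, 2 guardians stood above all other members. CPM was divided by the length of the canonical transcript of GENCODE v44, and the levels in this paragraph are CPM per kb. With R1881 the median was 63.7 for MCL1, 61.8 for BCL2L1, 22.2 for BAX, 17.4 for BAD, 11.3 for BAK1, 8.03 for PMAIP1, 5.75 for BCL2L11, 5.53 for BIK, 4.43 for BID and 0.568 for BCL2. The ranges over libraries overlapped between MCL1 and BCL2L1, between BAX and BAD, and among BCL2L11, BIK and BID for neighbours in this order. With enzalutamide MCL1 led with 69.8 (63.5 to 73.7) and BCL2L1, at 42.1 (40.1 to 47.7), no longer overlapped it. PMAIP1 moved from rank 6 to rank 9, at 4.23, and BID from rank 9 to rank 6, at 7.08. Of neighbours under enzalutamide, BAX overlapped BAD, BID overlapped BIK and BIK overlapped BCL2L11. BCL2 was the lowest under both treatments, at 0.687 with enzalutamide. MCL1 made up 31.7% of the summed medians of the 10 members with R1881 and 37.4% with enzalutamide, and BCL2L1 30.8% and 22.5%. With the length of all merged exons in place of the canonical transcript, MCL1, BCL2L1 and BCL2 kept their ranks, PMAIP1 moved from rank 5 to rank 8 with enzalutamide, BID stayed at rank 9, and BAX moved from rank 3 to rank 6 with R1881.

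**Figure D3:**
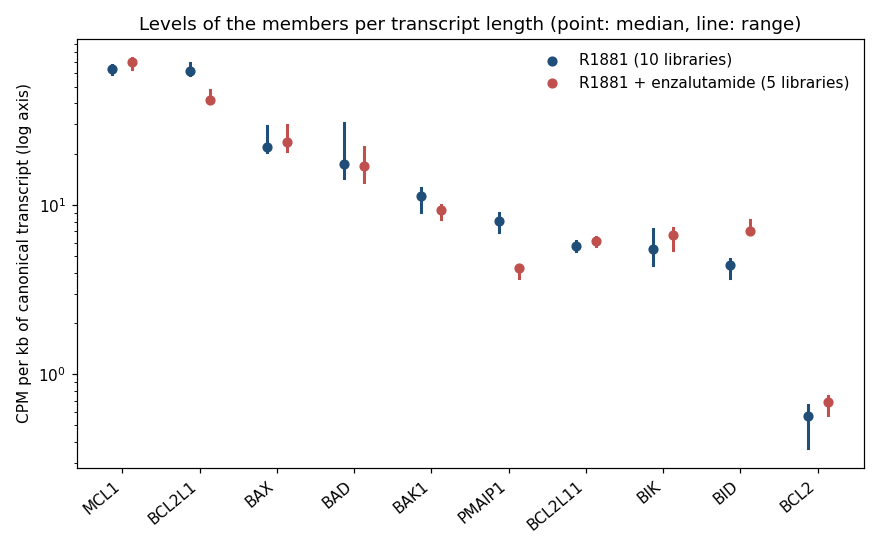
Level of each member in CPM per kb of its canonical transcript (log axis), as the median (point) and range (line) over 10 R1881 (blue) and 5 R1881 + enzalutamide (red) libraries. MCL1 and BCL2L1 overlap with R1881 (medians 63.7 and 61.8) and separate with enzalutamide (69.8 and 42.1), and BCL2 is lowest.

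Spread between libraries of a treatment differed widely among members. With R1881 the coefficient of variation was 3.36% for MCL1, where counting error alone gives 1.42%, and 5.06% for BCL2L11 (counting error 4.17%). For BCL2 it was 19.0% (counting error 11.9%). BAD varied by 25.8% at a counting error of 5.55%, and BAX by 12.7% at 5.28%. Their highest libraries were the same ones, R1881 replicates 6 and 5 and R1881 + enzalutamide replicate 2, with 28.3, 21.1 and 20.6 CPM of BAD and 23.3, 21.6 and 23.6 CPM of BAX. These libraries also stood apart in GC content. A GC tilt was computed per library as the mean log2 deviation from its treatment's mean of the 2155 genes with the most GC, minus that of the 2155 genes with the least, out of 10775. The tilt was 0.51, 0.28 and 0.35 in these 3 libraries and between -0.295 and 0.06 in the other 12. BAD, with 66.3% GC in its longest annotated transcript, is the member richest in GC and PMAIP1, with 36.7%, the poorest. BAD, BAX, BAK1 and BCL2L1 are themselves among the GC-rich genes of this measure.

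After correcting every library for its dependence on GC, the SD of log2(CPM + 0.5) among R1881 libraries fell from 0.314 to 0.084 for BAD and from 0.167 to 0.075 for BAX, and it was 0.116 and 0.122 for PMAIP1. BAX (0.16, adjusted p = 0.00373 from limma), BIK (0.26, adjusted p = 0.00966) and BCL2L11 (0.10, adjusted p = 0.0188) then passed, so that 6 members were higher and 3 lower. The log2 fold changes of PMAIP1, BCL2L1 and BID were -0.89, -0.47 and 0.74. The trend was fitted to deviations from the mean of all 15 libraries, so a treatment difference that follows GC was removed too. The fold changes therefore moved as well as the spread, for BAX from 0.08 to 0.16 and for BCL2L1 from -0.55 to -0.47. The error of the estimated GC trends is not carried into these p-values. With the 3 libraries left out instead, 3 members were lower and 2 higher, as BCL2 no longer passed (0.16, adjusted p = 0.17), and BAX did not pass (0.08, adjusted p = 0.225).

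**Figure D4:**
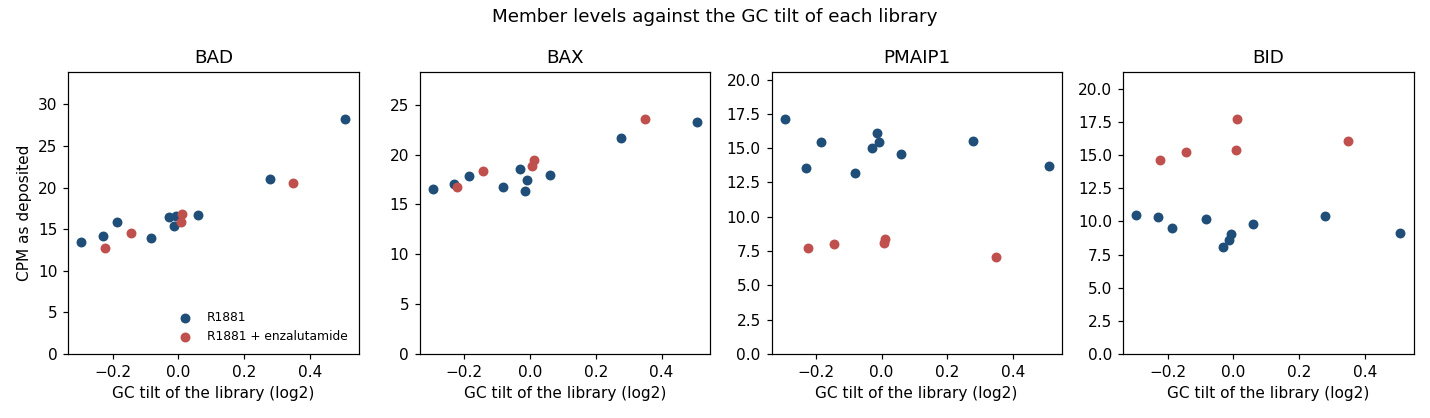
CPM of BAD, BAX, PMAIP1 and BID (vertical axes, from 0) against the GC tilt of each library (horizontal axis, log2 units), with R1881 in blue and R1881 + enzalutamide in red. BAD reaches 28.3 CPM in the library with a tilt of 0.51, while PMAIP1 and BID separate by treatment at every tilt.

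Annotated gene models bear on how far the counts belong to the members, since the kit kept the strand but the strand setting of the counting is unknown from the sources used. BCL2L1 (chromosome 20, 31664452 to 31723989, minus strand, GRCh38 and GENCODE v44) shares 1735 exon bases with the antisense RNA ABALON. BAD (chromosome 11, 64269830 to 64284704, minus strand) shares 404 with GPR137, and BCL2L11 (chromosome 2, 111119378 to 111168444, plus strand) shares 727 with MIR4435-2HG, both on the opposite strand. MCL1 (chromosome 1, 150560895 to 150579738, minus strand) shares 328 with ADAMTSL4-AS1 on its own strand. For PMAIP1 (chromosome 18, 59899996 to 59904305, plus strand) the annotation lists no overlapping gene, and for BID (chromosome 22, 17734138 to 17774770, minus strand) only a microRNA that shares no exon.

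Further apoptosis genes were examined in 5 lists written from general knowledge, with earlier results of these data known. Of their 50 genes, 42 were tested, of which 16 were lower and 15 higher with enzalutamide (32.7% and 29.8% of all genes), with a median log2 fold change of 0.02. Among other BCL2 family genes, 4 of 7 tested were higher and 1 was lower. BMF, a BH3-only gene, rose 4.29-fold on the log2(CPM + 0.5) scale, with 8.24 ± 0.762 CPM under R1881 (SD, n = 10) and 36.9 ± 3.08 CPM under the combination (SD, n = 5), which exceeded the change of any of the 10 members. BBC3 (PUMA), a BH3-only target of p53, was low at 1.36 ± 0.724 and 2.40 ± 0.670 CPM, with a log2 fold change of 0.70 (limma adjusted p = 0.00849) and overlapping libraries. BCL2L12 had a log2 fold change of -0.56.

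In the caspase activation list 6 of 11 genes were higher and 4 lower (29.8% and 32.7% of all genes), with a median log2 fold change of 0.09. ENDOG, a mitochondrial nuclease, had a log2 fold change of -0.42 and CYCS, which encodes cytochrome c, of -0.27, while CASP6 had 0.36 and CASP9, the initiator caspase of the mitochondrial pathway, 0.24. Of the inhibitors of apoptosis proteins and their antagonists, 3 of 8 were higher and 3 lower (29.8% and 32.7% of all genes), with a median of 0.04. BIRC3 (cIAP2) had 2.91 ± 0.429 CPM under R1881 (SD, n = 10) and rose to 10.96 ± 1.69 CPM (SD, n = 5), and BIRC5 (survivin), a gene of dividing cells, fell from 63.7 ± 5.62 to 34.4 ± 1.95 CPM. NAIP had a log2 fold change of 1.31, with some uncertainty because it has near-identical partial copies that could take up its reads, and BIRC6 had -0.12.

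Of the 11 death receptor genes tested, 7 were lower and 2 higher, while 32.7% of all genes were lower and 29.8% higher. The median log2 fold change was -0.25, and the list was not tested as a set. TNFRSF10B, the TRAIL receptor DR5, fell 2.16-fold, with 284 ± 10.1 CPM under R1881 (SD, n = 10) and 131 ± 2.85 CPM under the combination (SD, n = 5), and the adaptor TRADD had a log2 fold change of -0.57. FAS rose from 3.78 ± 0.364 to 7.09 ± 0.796 CPM, and TNFSF10, which encodes TRAIL, had 0.317 and 0.904 CPM (log2 fold change 0.78). No R1881 library held more than 0.474 CPM of TNFSF10. It met the filter of 0.5 CPM on average only through the libraries with enzalutamide, so its count as higher is no support. CASP8, the protease that cleaves BID, did not pass (23.6 ± 1.41 and 24.96 ± 2.48 CPM, adjusted p = 0.28 from limma). Of 5 genes that control the turnover of MCL1 protein, only USP13, a deubiquitinase, passed, with a log2 fold change of -0.29 (32.7% of all genes were lower).

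**Figure D5:**
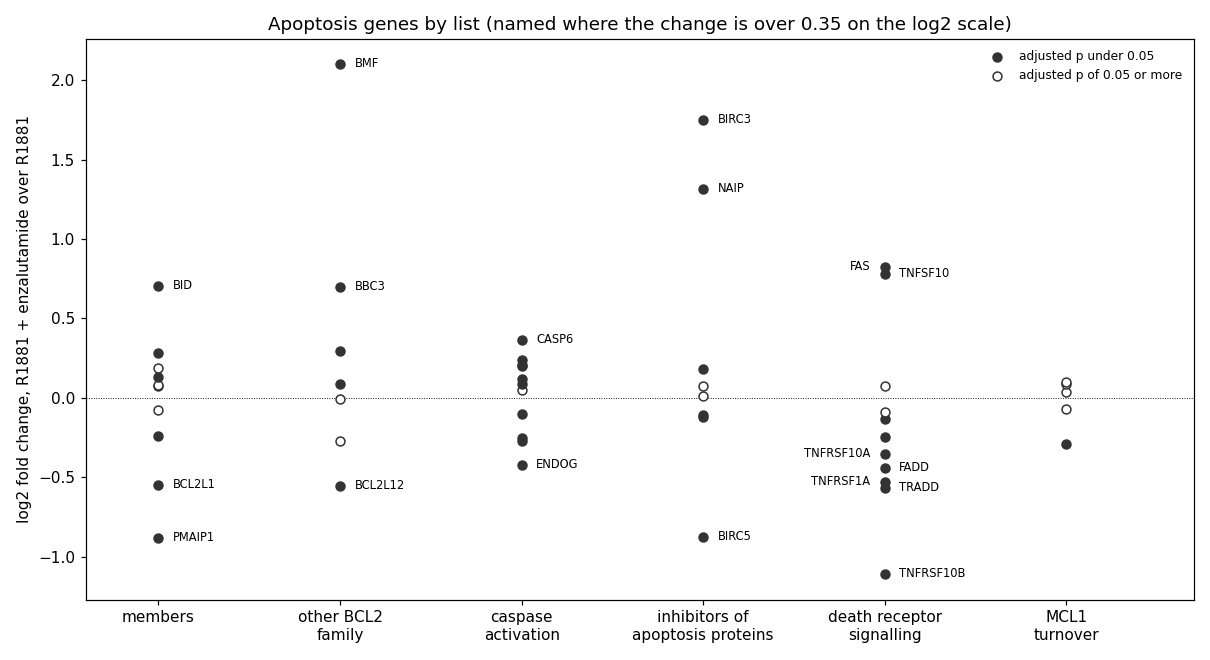
Log2 fold change (vertical axis), R1881 + enzalutamide over R1881, of the 10 members and the genes of 5 further lists, with filled points for an adjusted p under 0.05. Changes run both ways in most lists, from TNFRSF10B at -1.11 to BMF at 2.10.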

How the data were processed

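Polyadenylated RNA of LNCaP cells was sequenced (stranded libraries, single-end reads). For these, the authors used STAR (GRCh38) for mapping and featureCounts for counting, and the deposited unit is a normalized signal that the methods call CPM. Versions of these tools, the annotation, the strand setting, the gene filter and the library size rule were not given in the sources used here. All values (100%) were whole multiples of 1 read within 0.01 reads, which gave back the reads, and no column lacked a sample. Column sums differ from 1000000, so the values were treated as a scaled signal, and the test planned for CPM on a log scale was kept. The methods call the libraries biological replicates. All 55 pairs of libraries within a treatment differed beyond sampling noise (chi-square over its degrees of freedom, lowest value 1.62).

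Differences were tested with limma 3.58.1 in R 4.3.3 (values as log2(CPM + 0.5), trend of variance on level, genes averaging 0.5 CPM or more, Benjamini-Hochberg adjustment over 17046 genes, threshold 0.05). A log2 fold change here refers to log2(CPM + 0.5), which shrinks the change of low genes. The test was tried on simulated reads of 16801 genes for this comparison, where it called 100% of 200 genes set to a 2-fold change and 8 of the 16601 left alone. The simulation gave every gene the same dispersion and held no GC tilt or label series. The largest change of a member was 1.85-fold, so how well changes of the members' size are found was not tested. Alternatives covered the pseudocount, the filter, the scaling, edgeR 4.0.16 and DESeq2 1.42.0 on the recovered reads, a replicate block, each R1881 series alone, a fold threshold and each library left out. Removal of the GC trend (a spline, for the 80.8% of genes matched by symbol, all members among them), leaving out 3 libraries of high GC tilt, and the shared replicate numbers without a block were added after the data were seen. Members and lists were chosen with earlier results of these data known. Named genes were all members, the 2 lowest and 2 highest called genes of each list, KLK3, and the 3 genes most similar to the lowest and the highest member. A marker gene and a promoter motif are not reported here. CASP8 and the markers were named beside these after their values were seen. The number of libraries limits the precision, as does counting error where reads are few.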

Additional observations from a re-analysis of the deposited data

Results flagged for a closer look

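Members, reads and GC tilt were screened in each treatment for 1 library standing far off. This occurred in 2 of 24 groups, and chance alone gives about 1.2. BAD in R1881 replicate 6 was 28.3 CPM, and the next library of this treatment had 21.1 CPM. The same library had the highest GC tilt, 0.51, and the part of GC content in this value of BAD was not tested beyond the removal of the trend given above. Without this library the log2 fold change of BAD was 0.01.

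The deepest library was R1881 + enzalutamide replicate 5 (25416052 reads), ahead of 22329140 reads in the second deepest of that treatment. Its values of the 10 members lay within the range of the other libraries with enzalutamide.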

How the results depend on the processing

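PMAIP1, BCL2L1, BID and MCL1 kept their direction and passed under all 30 alternatives, with log2 fold changes of -0.92 to -0.79, -0.59 to -0.46, 0.66 to 0.79 and 0.11 to 0.23. BAK1 passed under 28, BCL2 under 21, BCL2L11 under 5, BIK under 4, BAX under 1 and BAD under none. The number of members higher was 5 with library totals set to 1000000 and 6 with the GC trend removed. Requiring a change of at least 1.5-fold left 1 member lower (PMAIP1), 1 higher (BID) and 3172 genes in all. BAD turned to 0.016 with library totals set to 1000000 and to 0.054 against libraries 51 to 55 alone, and ranged from -0.166 to 0.007 with each library left out. Libraries with the same replicate number in both treatments did not deviate together (correlations from -0.11 to 0.13 over 5 numbers). Whether libraries are matched in another way, such as by label number, was not tested. With the replicate block 10117 genes were called on these 10 libraries and 10333 without it, with 3 members lower and 3 higher in both. Depth limits BCL2 and BIK most, where counting error was 11.9% and 9.90% per R1881 library.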

Other observations

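The genes whose pattern over the 15 libraries was most like that of PMAIP1, among 12164 genes with a mean of at least 5 CPM, were NTNG1 and MRPL32 (Pearson's r 0.986 for each) and UGT2B11 (0.984), with log2 fold changes of -1.45, -0.45 and -1.63. For BID they were PHYH, an enzyme of peroxisomal fatty acid oxidation (r 0.972), MAN1A1 and FGF13 (0.970 for each), with log2 fold changes of 0.62, 2.42 and 1.70. These correlations are descriptions over libraries that fall into 2 treatments and mostly follow the treatment.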
